A study of Mus musculus with 4 samples.

Results

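Glycolysis and glycogen metabolism enzymes were examined in the skeletal muscle of mice lacking corticotropin-releasing factor receptor 2. The set held 41 genes, given by name and matched through the annotation of the array's probe sets, by old or current symbol. Of these, 34 had at least 1 probe set of their own among the 12422 probe sets tested, which carried 8251 distinct gene symbols. The 34 genes had 43 probe sets, 1 each for 25 genes and 2 each for 9 genes. Gapdh was named only on control probe sets and on probe sets shared with pseudogenes and is described apart. The annotation used here named no probe set for the other 6 genes, which were Hk3, Gpi1, Pfkfb1, Eno1, Ppp1r3a and Pygl.

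The KO group carried the genotype Crhr2-/- and the WT group the genotype Crhr2+/+. All animals were untreated male littermates, aged 6.5 months, on a C57BL/6x129 background, with chow and water freely available. Each genotype was represented by 2 arrays, and each array by the pooled RNA of 2 mice from the gastrocnemius and soleus muscles together, measured on the 1-colour Affymetrix U74Av2 chip. The sources used here do not say how the Crhr2 allele was made. The 8 muscle fibre markers, among them Acta1 and Ckm, were all above the median level of the chip, so the RNA carried the labelled tissue. Because pools mix fibres with other cells, fewer cells of a type and less RNA per cell cannot be told apart.

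Glycolysis splits glucose into pyruvate in the cytosol and yields ATP without oxygen, and lactate dehydrogenase turns pyruvate into lactate when it outruns the mitochondria. Skeletal muscle stores glucose as glycogen, which phosphorylase releases during contraction, and fast fibres are known for their large glycolytic capacity. Most steps are served by several isozymes, with a form typical of muscle (such as Pfkm, Pgam2, Eno3 and Pygm) beside forms typical of liver, brain or most cells. Urocortin peptides act on the receptor that Crhr2 encodes and so raise cAMP in the cell, and cAMP signalling is a known control of glycogen phosphorylase and glycogen synthase.

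Loss of the receptor was compared with its presence in muscle at rest. For these enzymes the data showed no difference past the test. In limma, with Benjamini-Hochberg adjustment over all 12422 probe sets, 0 of the 43 enzyme probe sets had an adjusted p under 0.05, as did 0 of all probe sets (0.0%), and the smallest adjusted p among the enzymes was 0.813. At an unadjusted p under 0.05 there were 2 enzyme probe sets, against 5.43% of all probe sets. Both KO arrays read below both WT arrays on 9 of the 43 probe sets, where 17.6% of all probe sets did, and above both WT arrays on 2, where 17.0% of all did. The median log2 fold change of the 43 probe sets was -0.01, and that of all probe sets was 0.00. With each gene taken at its brighter probe set, 20 genes had a log2 fold change below 0 and 14 one above 0, with a median of -0.04. With 2 arrays against 2, an exact two-sided permutation test of a single gene cannot give a p below 0.333.

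**Figure D1:**
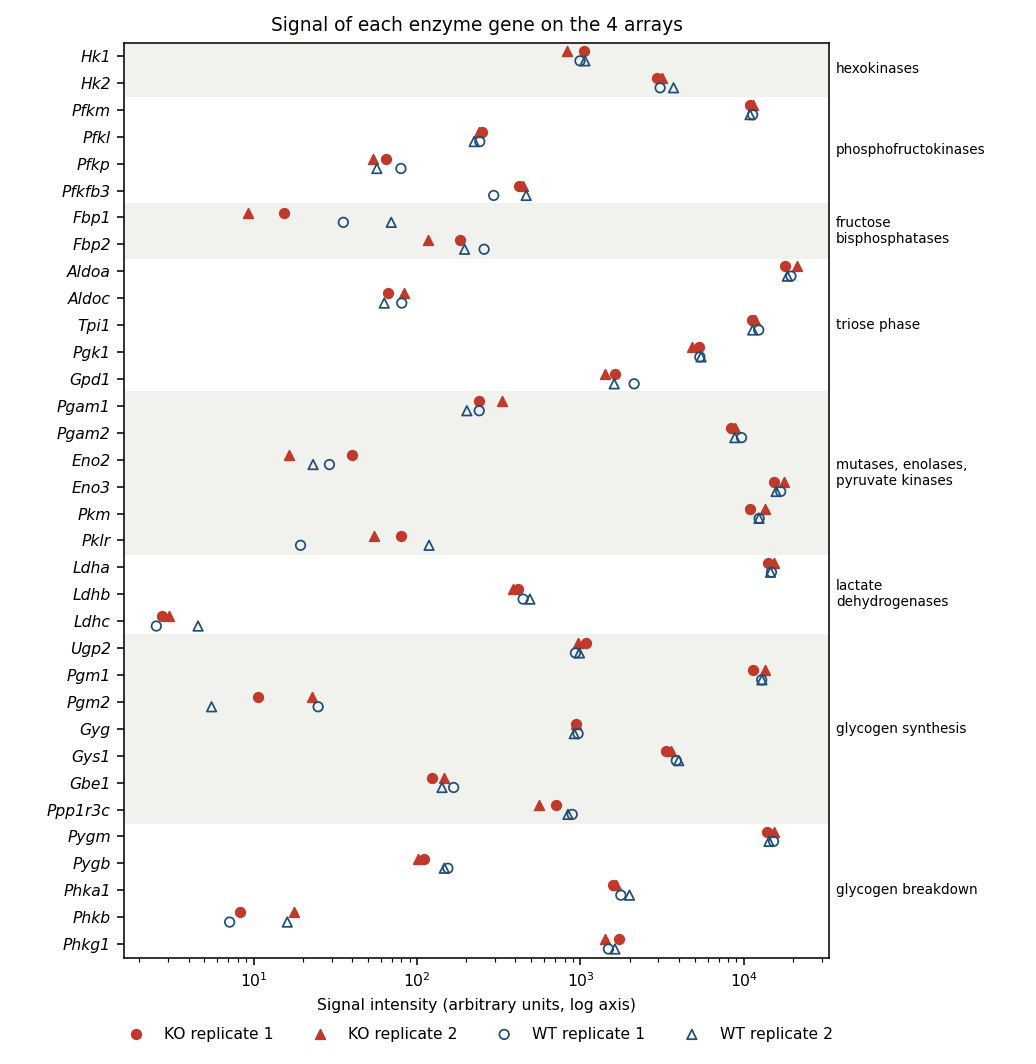
Signal intensity on a log axis, in arbitrary units, for the probe set with the higher mean of each of 34 genes, grouped by pathway step. Filled red symbols are the 2 KO arrays and open blue symbols the 2 WT arrays. KO and WT symbols lie close together for enzymes with high signals, such as Pfkm (10834 and 11380 in KO, 11303 and 10898 in WT), and apart for Fbp1, Pygb and Ppp1r3c.

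Values below are signal intensities in arbitrary units for the probe set with the higher mean, KO arrays before WT arrays and replicate 1 before replicate 2. Log2 fold changes are KO minus WT on log2(intensity + 14), with their standard error, and understate the change of dim genes. Signals of different probe sets do not rank transcripts against each other, because each probe set has its own binding strength.

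The entry of glucose into the pathway read slightly lower in KO, without separating the genotypes. Hk2, the insulin-responsive hexokinase of muscle, read 2919 and 3136 in KO muscle, against 3070 and 3710 in WT muscle. Its log2 fold change was -0.16 ± 0.13 (limma adjusted p = 0.908), and WT replicate 2 alone stood above the other arrays. Hk1, the hexokinase found in most cells, read 1050 and 831 in KO muscle, against 993 and 1065 in WT muscle (-0.14 ± 0.14). Here KO replicate 2 was the low array and KO replicate 1 lay within the WT range. The other Hk2 probe set read at most 8.39 on any array and had a difference of the opposite sign, with 5.10 and 8.39 in KO and 6.98 and 3.13 in WT (0.13 ± 0.21).

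Phosphofructokinase commits sugar to glycolysis, and its muscle form was nearly equal between the genotypes. Pfkm read 10834 and 11380 in KO muscle, against 11303 and 10898 in WT muscle, with a log2 fold change of 0.00 ± 0.11 and a 95% confidence interval of -0.28 to 0.28. The KO values thus spanned the WT values. Pfkl, the liver form, read 248 and 239 in KO muscle, against 242 and 223 in WT muscle (0.06 ± 0.15). Pfkp, the platelet form, read 64.4 and 53.4 in KO muscle, against 79.7 and 56.8 in WT muscle (-0.16 ± 0.33). Its dimmer probe set went the other way and did separate the genotypes, at 31.0 and 40.1 in KO and 26.2 and 10.7 in WT (0.65 ± 0.38, limma adjusted p = 0.908). These probe sets of Pfkp disagreed in sign, and both lay below the median level of the chip.

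Pfkfb3 makes the sugar bisphosphate that activates phosphofructokinase. It read 422 and 443 in KO muscle, against 294 and 465 in WT muscle (0.22 ± 0.22), so only WT replicate 1 stood apart. Its dimmer probe set had a log2 fold change of 0.19 ± 0.36.

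The fructose bisphosphatases oppose phosphofructokinase, and both genes read lower in the KO pools than in either WT pool. Fbp2, the muscle form, read 183 and 117 in KO muscle, against 257 and 195 in WT muscle. The KO mean reached 66.3% of that in WT (150.0 ± 46.8 against 226 ± 43.8, SD, n = 2 each), and the log2 fold change of -0.57 ± 0.26 did not pass (limma adjusted p = 0.908, 95% confidence interval -1.20 to 0.06). KO replicate 1 lay only just under WT replicate 2, so the separation was narrow. Fbp1, the liver and kidney form, was dim, at 15.3 and 9.20 in KO muscle, against 35.4 and 69.5 in WT muscle. Its log2 fold change of -1.30 ± 0.40 was the largest in size of the 43 and did not pass either (limma adjusted p = 0.813). Signals of liver genes were lower in KO as well, though they did not follow Fbp1 array by array. The 7 liver markers measured of 8 listed summed to 262 and 352 in KO muscle, against 618 and 1717 in WT muscle. Albumin (Alb) read 78.7 and 95.2 in KO and 230.0 and 1016 in WT, and 4 of the 7 markers lay below the median level of the chip. WT replicate 2 was the highest array both for Fbp1 and for 6 of the 7 markers. KO replicate 1 was the lowest for 6 of the 7, while Fbp1 was lowest in KO replicate 2. Both KO arrays read below both WT arrays on 4 of the 7. The part of liver RNA in the Fbp1 difference was not tested.

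**Figure D2:**
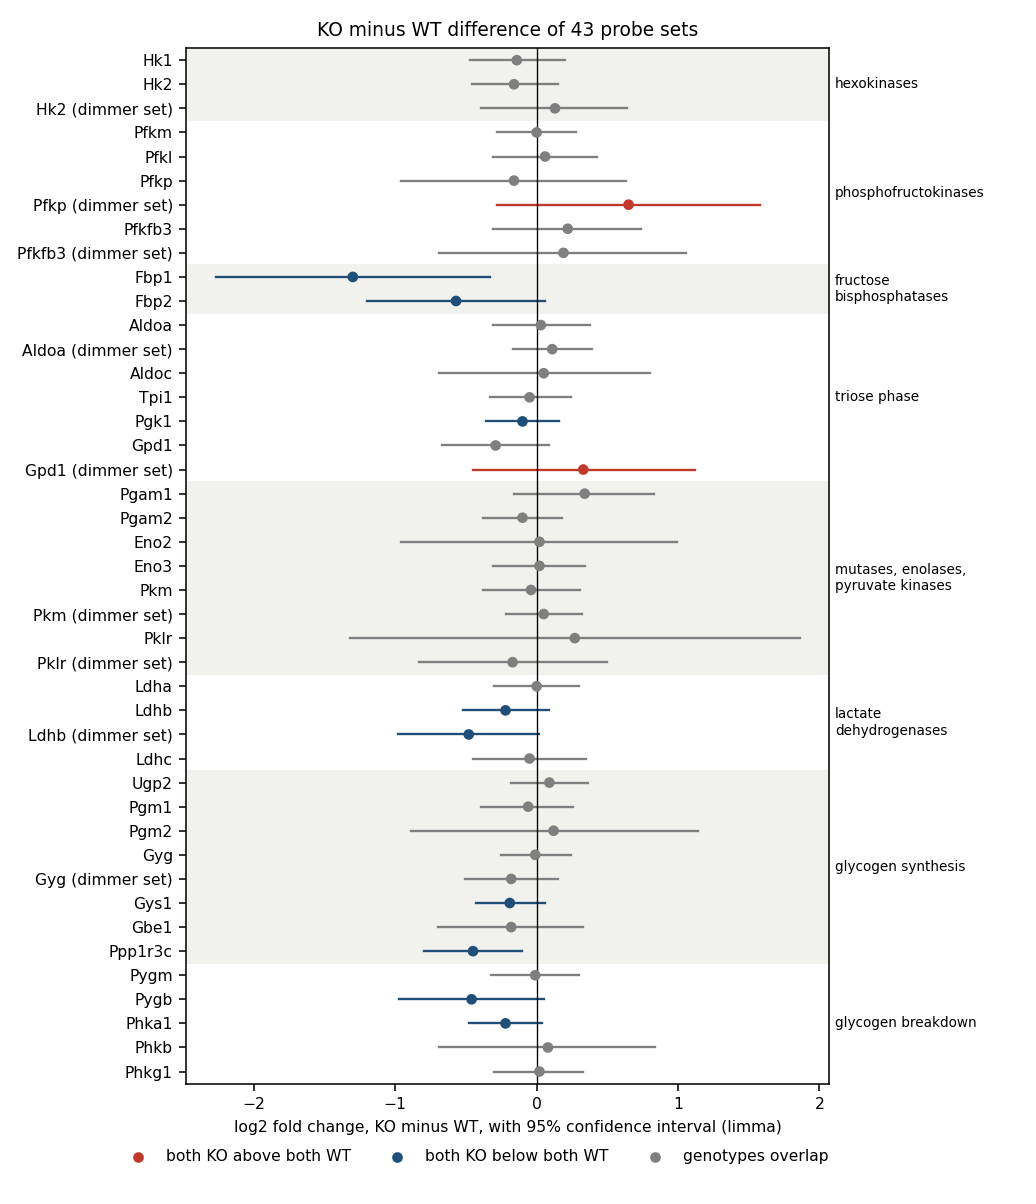
Log2 fold change, KO minus WT, with its 95% confidence interval from limma for all 43 enzyme probe sets, in pathway order. Red marks probe sets with both KO arrays above both WT arrays (2), blue those with both KO arrays below (9), and grey those that overlap. The intervals of Fbp1 and Ppp1r3c exclude 0 before adjustment, and no probe set passed after it.

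The enzymes of the triose phase, where each sugar is cut and oxidised, were close to equal apart from Gpd1. Aldoa, the muscle aldolase, read 17833 and 21058 in KO muscle, against 19402 and 18441 in WT muscle (0.03 ± 0.14). Its dimmer probe set had a log2 fold change of 0.11 ± 0.12. Tpi1, which interconverts the triose phosphates, read 11216 and 11657 in KO muscle, against 12313 and 11313 in WT muscle (-0.05 ± 0.12). In both genes the KO range crossed the WT range. Pgk1, which makes the first ATP of the payoff phase, read 5304 and 4816 in KO muscle, against 5374 and 5467 in WT muscle. The genotypes did not overlap, but the difference was small, at -0.10 ± 0.11 with a 95% confidence interval of -0.36 to 0.16. Aldoc, the brain aldolase, was dim and read 66.3 and 83.6 in KO muscle, against 80.6 and 63.0 in WT muscle (0.05 ± 0.31).

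Gpd1 links the triose phosphates to glycerol and shuttles electrons to mitochondria. It read 1616 and 1409 in KO muscle, against 2129 and 1608 in WT muscle (-0.29 ± 0.16, limma adjusted p = 0.908), so WT replicate 1 alone stood high. The gene is also strongly expressed in fat, and the 6 adipocyte markers measured of 8 listed summed to 2884 and 2717 in KO muscle, against 3456 and 2521 in WT muscle, highest in the same array. Adiponectin (Adipoq), which made up much of this sum, read 1777 and 1480 in KO muscle, against 2062 and 1213 in WT muscle. Adipoq, Lipe and Fabp4 were highest in WT replicate 1, while Lep was highest in WT replicate 2, Cidea in KO replicate 1 and Ucp1 in KO replicate 2. The part of fat in the Gpd1 values was not tested. The dimmer Gpd1 probe set disagreed in sign and separated the genotypes the other way, at 71.5 and 74.2 in KO and 65.4 and 45.8 in WT (0.33 ± 0.32).

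Gapdh, the oxidising step between Tpi1 and Pgk1, could be read from the chip's control probe sets, which were not part of the test. Its 3' control set read 18352 and 21362 in KO muscle, against 18709 and 17914 in WT muscle. Its 5' control set read 17634 and 21619 in KO muscle, against 21053 and 19596 in WT muscle. The log2 difference was thus 0.11 at the 3' end and -0.06 at the 5' end. On the middle control set it was -0.08, with 19105 and 23663 in KO muscle, against 23311 and 21599 in WT muscle. The probe sets shared with pseudogenes gave 0.03 and 0.10. The 3' to 5' ratio was 1.04 and 0.988 in KO, against 0.889 and 0.914 in WT, higher in both KO arrays. This ratio follows RNA integrity and labelling, and its part in the other differences was not tested.

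Among the mutases, enolases and pyruvate kinases, the muscle forms were nearly equal between the genotypes. Pgam2, the muscle phosphoglycerate mutase, read 8394 and 8815 in KO muscle, against 9670 and 8797 in WT muscle (-0.10 ± 0.12). Eno3, the muscle enolase, read 15358 and 17588 in KO muscle, against 16784 and 15737 in WT muscle (0.02 ± 0.13). Pkm, the pyruvate kinase of muscle and most other tissues, read 10845 and 13461 in KO muscle, against 12396 and 12372 in WT muscle (-0.04 ± 0.14). The WT values of Pkm lay inside the KO range, and those of Eno3 did too. The dimmer Pkm probe set went the other way, with 4926 and 4339 in KO and 4421 and 4530 in WT (0.05 ± 0.11).

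The forms of these enzymes typical of other tissues were dim or variable. Pgam1, the mutase of brain and most tissues, read 239.6 and 331 in KO muscle, against 240.0 and 202 in WT muscle. Its log2 fold change of 0.34 ± 0.20 was the highest of the 34 genes and came mainly from KO replicate 2 (limma adjusted p = 0.908). Eno2, the neuronal enolase, read 39.7 and 16.5 in KO muscle, against 29.1 and 23.1 in WT muscle (0.02 ± 0.40). Pklr, the pyruvate kinase of liver and red blood cells, read 79.7 and 54.5 in KO muscle, against 19.4 and 118 in WT muscle (0.27 ± 0.66). The WT arrays of Pklr differed more from each other than from the KO arrays, and its dimmer probe set had the opposite sign, at 6.93 and 9.98 in KO and 16.3 and 6.85 in WT (-0.17 ± 0.28). The 4 red blood cell markers measured of 6 listed summed to 8921 and 7892 in KO muscle, against 6826 and 5456 in WT muscle. Pklr did not share this order of arrays. Hba-a1 made up nearly all of the sum, at 8683 and 7747 in KO muscle, against 6645 and 5359 in WT muscle. Alas2, Slc4a1 and Epb42 each ordered the arrays otherwise, and 2 of the 4 markers lay below the median level of the chip. The part of red blood cells in the Pklr values was not tested.

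Lactate dehydrogenase was nearly equal in its muscle subunit. Ldha read 14030 and 15317 in KO muscle, against 14746 and 14546 in WT muscle, with a log2 fold change of 0.00 ± 0.12 and a 95% confidence interval of -0.30 to 0.30. Ldhb, the subunit of heart and oxidative fibres, read 416 and 385 in KO muscle, against 445 and 490 in WT muscle. Both KO arrays were below both WT arrays, by -0.22 ± 0.13 (limma adjusted p = 0.908). Its dimmer probe set, at most 12.3 on any array, also read lower in both KO arrays (-0.48 ± 0.21, limma adjusted p = 0.908). Ldhb was the only gene of the 9 with several probe sets in which both probe sets separated the genotypes. Markers of slow fibres, the oxidative type, did not order the arrays as Ldhb did: the 7 of 7 measured summed to 17449 and 14440 in KO muscle, against 11107 and 19045 in WT muscle, lowest in WT replicate 1. Ldhc, the subunit of sperm, read at most 4.57 on any array (-0.05 ± 0.16).

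Glycogen synthesis starts from glucose phosphate, and its early enzymes did not separate the genotypes. Pgm1 (Entrez gene 72157), a phosphoglucomutase, read 11318 and 13389 in KO muscle, against 12840 and 12887 in WT muscle (-0.06 ± 0.13). Pgm2 (Entrez gene 66681) was dim, at 10.6 and 22.6 in KO muscle, against 24.8 and 5.53 in WT muscle (0.12 ± 0.42). These gene symbols have been exchanged in mouse nomenclature, so the identifiers are given. Ugp2, which makes UDP-glucose, read 1079 and 960 in KO muscle, against 931 and 985 in WT muscle (0.09 ± 0.11). Gyg, the glycogenin that primes each particle, read 940 and 933 in KO muscle, against 967 and 916 in WT muscle (-0.01 ± 0.10). The KO values of Gyg lay inside the WT range, and its dimmer probe set had a log2 fold change of -0.18 ± 0.13. Gbe1, the branching enzyme, read 123 and 146 in KO muscle, against 167 and 142 in WT muscle (-0.18 ± 0.21).

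The enzyme and the targeting subunit that lengthen the glycogen chain were lower in both KO arrays. Gys1, the muscle glycogen synthase, read 3324 and 3574 in KO muscle, against 3856 and 3988 in WT muscle. The KO mean reached 87.9% of that in WT (3449 ± 177 against 3922 ± 93.7, SD, n = 2 each), with a log2 fold change of -0.19 ± 0.10 and a 95% confidence interval of -0.43 to 0.06. Ppp1r3c, which brings protein phosphatase to glycogen and thereby favours synthesis, read 709 and 555 in KO muscle, against 890.0 and 838 in WT muscle. The KO mean reached 73.1% of that in WT (632 ± 109 against 864 ± 36.7, SD, n = 2 each). Its log2 fold change of -0.45 ± 0.14 had an interval of -0.80 to -0.10 before adjustment and did not pass (limma adjusted p = 0.829).

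Of the breakdown enzymes, muscle phosphorylase was nearly equal, and Pygb and Phka1 read lower in both KO arrays, while Phkb and Phkg1 overlapped. Pygm, the phosphorylase of muscle, read 13906 and 15289 in KO muscle, against 15181 and 14233 in WT muscle (-0.01 ± 0.13, 95% confidence interval -0.32 to 0.30). Pygb, the brain phosphorylase, read 110 and 102 in KO muscle, against 154 and 147 in WT muscle. The KO mean reached 70.3% of that in WT (106 ± 5.53 against 151 ± 5.40, SD, n = 2 each), with a log2 fold change of -0.46 ± 0.21 (limma adjusted p = 0.908). The gap between the genotypes in Pygb was several times the gap between arrays of a genotype. The 4 nerve and Schwann cell markers measured of 6 listed summed to 336 and 355 in KO muscle, against 280.0 and 462 in WT muscle. Mbp made up most of this sum, at 267 and 272 in KO and 220 and 382 in WT, and 3 of the 4 lay below the median level of the chip. Of the dim ones, Nefm read lower in both KO arrays, Nefl read higher in both and S100b overlapped. The part of nerve in the Pygb values was not tested.

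Phosphorylase kinase switches phosphorylase on in answer to calcium and cAMP. Phka1, its muscle regulatory subunit, read 1574 and 1650 in KO muscle, against 1766 and 1994 in WT muscle. Both KO arrays were below both WT arrays, by -0.22 ± 0.11 (limma adjusted p = 0.908), and the KO mean reached 85.7% of that in WT. Phkg1, its muscle catalytic subunit, read 1732 and 1420 in KO muscle, against 1482 and 1624 in WT muscle (0.02 ± 0.13). Phkb, another regulatory subunit, read at most 17.7 on any array (0.08 ± 0.32). Over synthesis and breakdown together, 4 of 12 glycogen genes (Gys1, Ppp1r3c, Pygb and Phka1) read lower in both KO arrays and 0 read higher in both, with a median log2 fold change of -0.04. The shares over all probe sets were 17.6% lower and 17.0% higher. The lower share was 22.0% of all probe sets with means over 1000 and 19.2% of those with means of 100 to 1000. Each of the 4 genes had a mean in 1 of these ranges. Of the 22 genes of glycolysis and fructose bisphosphatase, 4 read lower in both KO arrays (Fbp1, Fbp2, Pgk1 and Ldhb), or 18.2%, a share near the 17.6% of all probe sets. None of the 22 read higher in both, and their median was -0.04 as well.

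The 250 bases before the start of the 4 glycogen genes that read lower in both KO arrays are shown. These genes were chosen by that direction after their values were seen, so the direction they share is no result. The sequences are from RefSeq on GRCm38.p6, on the gene's strand, and capitals mark the E-box CANNTG, which reads alike on both strands and is bound by myogenic factors among others, and the core TGACG of the cAMP response element, searched on both strands.
Gys1, chr7:45434589-45434838, plus strand: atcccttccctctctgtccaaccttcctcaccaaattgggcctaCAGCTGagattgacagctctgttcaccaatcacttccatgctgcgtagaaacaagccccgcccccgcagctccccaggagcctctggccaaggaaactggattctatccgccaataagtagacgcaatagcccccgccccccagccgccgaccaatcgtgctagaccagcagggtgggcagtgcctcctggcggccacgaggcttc
Ppp1r3c, chr19:36736605-36736854, minus strand: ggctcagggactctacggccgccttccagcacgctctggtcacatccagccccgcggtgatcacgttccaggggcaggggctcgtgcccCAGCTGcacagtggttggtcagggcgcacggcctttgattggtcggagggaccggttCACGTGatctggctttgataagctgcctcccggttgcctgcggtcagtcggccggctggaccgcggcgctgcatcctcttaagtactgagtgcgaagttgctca
Pygb, chr2:150786546-150786795, plus strand: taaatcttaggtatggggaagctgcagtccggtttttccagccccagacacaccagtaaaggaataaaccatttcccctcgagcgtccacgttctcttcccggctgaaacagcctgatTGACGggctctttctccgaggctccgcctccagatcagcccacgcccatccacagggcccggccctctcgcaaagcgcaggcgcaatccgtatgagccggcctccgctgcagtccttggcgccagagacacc
Phka1, chrX:102644247-102644496, minus strand: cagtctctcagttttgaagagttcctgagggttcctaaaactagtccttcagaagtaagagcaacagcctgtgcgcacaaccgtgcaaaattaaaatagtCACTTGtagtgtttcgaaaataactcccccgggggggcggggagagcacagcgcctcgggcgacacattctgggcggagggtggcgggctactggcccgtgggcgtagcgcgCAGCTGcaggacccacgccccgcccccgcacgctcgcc

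In these windows Gys1 held 1 E-box, Ppp1r3c 2, Phka1 2 and Pygb none, and only Pygb held the TGACG core. Over all 32851 promoters of the table, windows of the same length held an E-box in 66.2% and TGACG in 17.8%. Of the 33 enzyme genes found in the table, 72.7% had at least 1 promoter with an E-box and 21.2% at least 1 with TGACG. These shares were counted per gene and those above per promoter. A gene with several promoters has more chances of a match, so the shares cannot be compared directly. Gpd1 was not matched. A match of letters is a description and shows no binding.

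**Figure D3:**
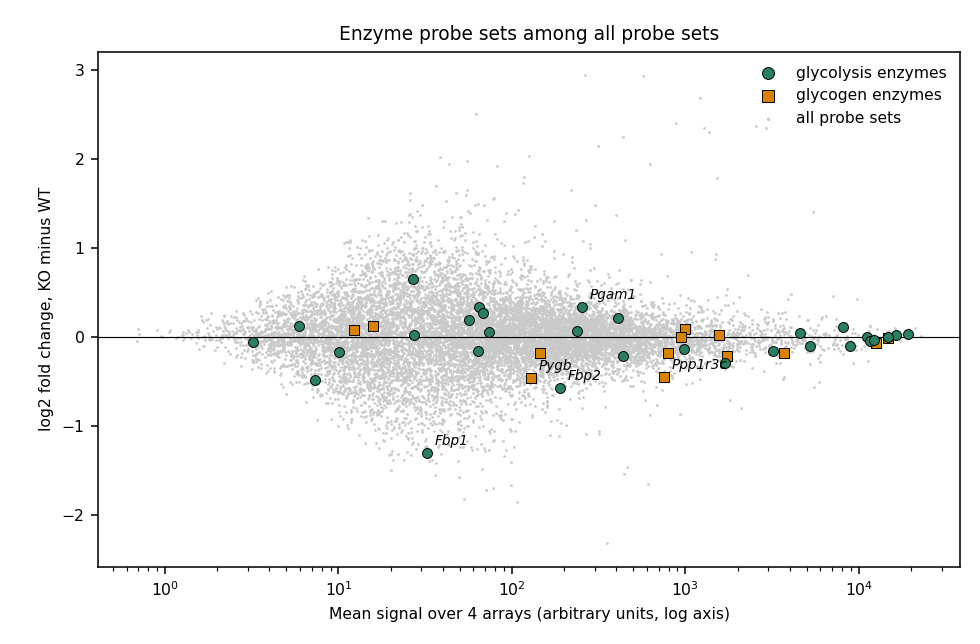
Log2 fold change, KO minus WT, against the mean signal over the 4 arrays on a log axis, in arbitrary units. Green circles are the probe sets of glycolysis and fructose bisphosphatase, orange squares those of glycogen metabolism and grey points all 12422 probe sets. Each gene's brighter probe set, where its signal is over 5000, lies between -0.10 and 0.03, the dimmer Aldoa probe set lies at 0.11, and the named genes with larger differences have lower signals.

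Genes with high signals differed little between the genotypes. The 10 genes with a mean signal over 5000 (Pfkm, Aldoa, Tpi1, Pgk1, Pgam2, Eno3, Pkm, Ldha, Pgm1 and Pygm) had log2 fold changes of -0.10 to 0.03. Their 95% confidence intervals, before adjustment, reached from -0.39 to 0.38, so 2 arrays per genotype did not settle differences within that range. These intervals are not the limit of the adjusted test, in which even a probe set with a log2 fold change of 2.94 did not pass. The median size of the log2 fold change was 0.04 for these 10 and 0.08 for all 111 probe sets over that signal. The 12 probe sets with means of 100 to 1000 had a median log2 fold change of -0.16, and all 4423 probe sets in that range had -0.01. The 14 with means up to 100 went the other way, at 0.06, against 0.01 for all 7259 in that range.

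The arrays of a genotype differed from each other by more than the genotypes did, in the enzymes as over the whole chip. Among the 15 genes with a mean signal over 1000, KO replicates differed by a median of 0.14 and WT replicates by 0.09 on the log2 scale. The median size of the KO minus WT difference was 0.05, a difference of means of 2 and therefore steadier than that of single arrays. All 740 probe sets over that signal gave 0.14 for KO replicates, 0.11 for WT replicates and 0.09 between genotypes. KO replicate 1 was the lowest array for 12 of these 15 genes, and KO replicate 2 the highest for 7. Of all 740 probe sets over that signal, KO replicate 1 was the lowest for 199, KO replicate 2 the lowest for 228 and KO replicate 2 the highest for 184. The brightest probe sets of the chip leaned the same way as the enzymes. Of all 111 probe sets over 5000, KO replicate 1 was the lowest for 46 and KO replicate 2 the highest for 49. For the 10 enzyme genes over 5000 these counts were 9 and 7. The sums of fast-fibre markers, of which 6 of 6 were measured, ordered the KO arrays alike, at 80564 and 94534 in KO muscle, against 86754 and 82586 in WT muscle. Among these markers Myh1 went the other way, at 5295 and 4902 in KO muscle, against 5323 and 6120 in WT muscle. Myh2 read at most 12.05 on any array. Exocrine pancreas markers, of which 6 of 8 were measured, summed to 10917 and 3207 in KO muscle, against 1318 and 1244 in WT muscle, highest in KO replicate 1. The part of fibre type or of other tissue in the enzyme values was not tested.

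**Figure D4:**
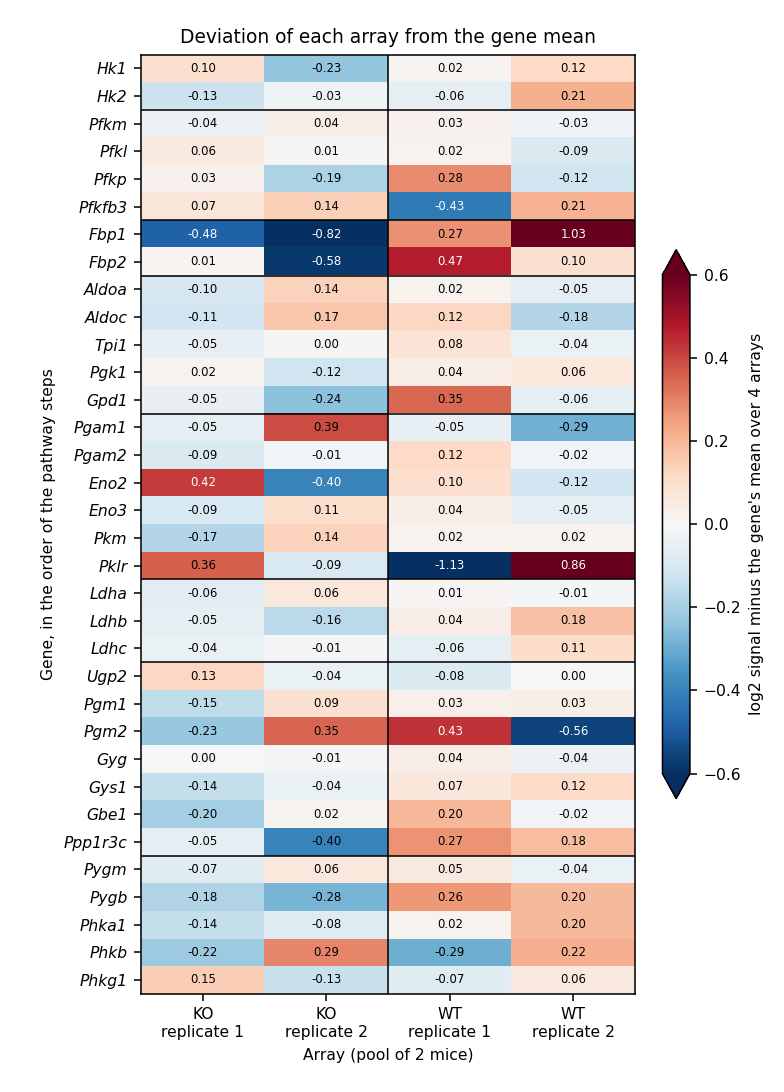
Log2 signal of each array minus the gene's mean over the 4 arrays, for the 34 genes in pathway order, with KO arrays left and WT arrays right of the vertical line. Colours stop at 0.6 in either direction, and the numbers give the values. Gys1, Ppp1r3c, Pygb and Phka1 are blue in both KO columns and red in both WT columns, while Pklr and Pfkfb3 are lowest in WT replicate 1.

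Neighbouring genes of the pathway were read in 4 lists, whose medians did not share 1 direction. In these lists 0 genes passed adjustment, which follows from the 0 among all 12422 probe sets. Of 22 listed genes that regulate glycogen, 9 were measured, 3 with a log2 fold change above 0 and 6 with one below (median log2 fold change -0.02). Gaa, the lysosomal glucosidase that digests glycogen, read 2303 and 2695 in KO muscle, against 2031 and 2197 in WT muscle (0.24 ± 0.12), above both WT arrays. Phkg2, the liver catalytic subunit of phosphorylase kinase, differed by -0.18 ± 0.18. Of 15 further genes around glycolysis, 9 were measured, 7 higher and 2 lower (median 0.12). Pck1, which makes glycerol precursors in fat and glucose precursors in liver, read 364 and 542 in KO muscle, against 276 and 258 in WT muscle (0.71 ± 0.20, limma adjusted p = 0.803). Bpgm, the bisphosphoglycerate mutase of red blood cells, differed by -0.11 ± 0.12.

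Of 6 glucose and lactate transport genes, 5 were measured, 2 higher and 3 lower (median -0.07). Slc2a4, the insulin-regulated glucose transporter of muscle, read 2394 and 2762 in KO muscle, against 2746 and 2893 in WT muscle (-0.13 ± 0.11), and Bsg, the chaperone of the lactate transporters, differed by -0.07 ± 0.10. Of 8 pentose phosphate genes, 7 were measured, 2 higher and 5 lower (median -0.10). Pgls, the lactonase of that pathway, read 315 and 436 in KO muscle, against 564 and 473 in WT muscle (-0.46 ± 0.19, limma adjusted p = 0.908). H6pd, its counterpart in the endoplasmic reticulum, differed by -0.35 ± 0.17.

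The targeted gene was the check of the labels. Crhr2 read 100.4 and 75.1 in KO muscle, against 154 and 192 in WT muscle on its brighter probe set (-0.88 ± 0.25, limma adjusted p = 0.803). Its dimmer probe set overlapped between genotypes (-0.03 ± 0.43). The sources used here do not say whether either probe set lies in the deleted part. Among the enzymes, 4 measured genes (Hk2, Tpi1, Eno2 and Ldhb) lie on the chromosome of Crhr2, and of these only Ldhb separated the genotypes.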

How the data were processed

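Muscle RNA pools of Crhr2-/- and Crhr2+/+ mice were measured on 4 Affymetrix U74Av2 arrays. The deposited table holds linear signal intensity values, 1 per probe set and array. Per the labels' protocols, RNA was labelled with biotin; the sources used here do not state how probes were summarised, whether background was subtracted or which sets were detected. The deposited columns shared a mean of 200.2 once the lowest and highest 2% were left out, so they were already scaled and were not rescaled. Precision is limited by the number of arrays.

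Of 12488 probe sets, 66 controls were left out. Values were taken as log2(intensity + 14), the added number being 20% of the table's median, and modelled in R 4.3.3 by limma 3.58.1 (lmFit, eBayes with an intensity trend, genotype as the only term). P-values are two-sided, with Benjamini-Hochberg adjustment over 12422 probe sets and a threshold of 0.05, and measure the spread between pools of 2 mice. The fit was tested on simulated data that gave all probe sets the same noise level and planted changes larger than any of the enzymes showed. That test therefore does not cover differences of the size seen here.

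The platform annotation gave 1 symbol to 10833 probe sets, several to 396 and none to 1193. Names were updated through GRCm38.p6 gene identifiers, where 10817 were found. Every enzyme gene measured is described, by the probe set with the highest mean and, more briefly, by any other. Of related pathway lists, the 2 genes with the smallest p are named. The enzymes and lists were chosen with earlier results of these data known. Groups were read from sample titles, because the labels exchange genotype and tissue. Alternatives covered the added number, scaling, a level filter, each array left out, the trend, 1 probe set per gene and a replicate block.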

Additional observations from a re-analysis of the deposited data

How the results depend on the processing

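No probe set passed adjustment under any of the 11 alternatives in which calls were counted, with counts of 0 for the enzymes and 0 for all probe sets, the replicate block included. The replicate block left the enzyme median at -0.01. The numbers were not taken to pair the arrays, since over all probe sets the differences between replicates 1 and 2 of KO and of WT correlated at 0.00345. Without 1 array, the median lay between -0.08 and -0.03. The 9 enzyme probe sets lower in both KO arrays became 15 without KO replicate 1, 21 without KO replicate 2, 15 without WT replicate 1 and 17 without WT replicate 2, and the 2 higher ones became 13, 9, 11 and 7, since 3 arrays separate more easily than 4. Over all probe sets the lower share in the same order was 32.8%, 35.3%, 33.9% and 32.8%, and the higher share 36.7%, 31.2%, 32.9% and 33.7%. The lower ones were 12 under quantile normalization and 12 with array medians centred, and the higher ones 4 and 3. In the same order, 18.2% and 18.1% of all probe sets were lower, and 16.8% and 16.4% higher. Among the 30 enzyme probe sets above the median level 7 were lower (23.3%) and 0 higher. Of all 6211 probe sets above that level, 19.0% were lower and 16.0% higher. Signs of near-zero differences turned under quantile normalization for Aldoa (-0.01), Eno2 (0.00), Eno3 (-0.03) and Pfkm (0.00), with array medians centred for Ldha (-0.01) and Pfkm (-0.01), and with the smaller added number for Eno2 (0.00). Without 1 array the sign turned for 19 of 34 genes. Their ranges were -0.08 to 0.15 for Aldoa, -0.10 to 0.20 for Aldoc, -0.39 to 0.43 for Eno2, -0.08 to 0.11 for Eno3, -0.04 to 0.03 for Gyg, -0.30 to 0.03 for Hk1, -0.06 to 0.06 for Ldha, -0.14 to 0.03 for Ldhc, -0.10 to 0.53 for Pfkfb3, -0.03 to 0.04 for Pfkm, -0.37 to 0.04 for Pfkp, -0.18 to 0.06 for Pgm1, -0.37 to 0.62 for Pgm2, -0.18 to 0.33 for Phkb, -0.13 to 0.16 for Phkg1, -0.72 to 1.26 for Pklr, -0.19 to 0.12 for Pkm, -0.08 to 0.06 for Pygm and -0.11 to 0.02 for Tpi1. For the 8 genes lower in both KO arrays the sign cannot turn without 1 array, by their choice, and the ranges were -0.63 to -0.28 for Ppp1r3c, -0.51 to -0.41 for Pygb, -0.24 to -0.13 for Gys1, -0.31 to -0.13 for Phka1, -0.28 to -0.15 for Ldhb, -0.17 to -0.03 for Pgk1, -0.86 to -0.27 for Fbp2 and -1.68 to -0.92 for Fbp1.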
